A study of Mus musculus with 15 samples.

Results

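Light to dark change was described for the cortex of Snord116del mice, which carry the Snord116tm1.1Uta deletion on the paternal chromosome (genotype Snord116del (+/-), strain B6(Cg)-Snord116tm1.1Uta/J, adult males). The deletion removes the Snord116 snoRNA cluster in the mouse counterpart of the Prader-Willi region, and with it the host transcript 116HG, a long noncoding RNA. The mice were kept in light from 6 a.m. to 6 p.m. and were taken at Zeitgeber time (Zt, hours since lights on) +6, during the light phase, or Zt+16, during the dark phase. These were 4 of the 15 samples of the series, 2 mice at each time, chosen as the RNA-seq samples labelled with this genotype. The remaining samples were 5 WT cortices (strain C57BL/6J, adult male littermates, 3 at Zt+6 and 2 at Zt+16) and 6 chromatin libraries of adult brain. The question the sampling addresses is whether loss of 116HG alters transcripts that follow the time of day.

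Transcript levels were given as FPKM, that is fragments per kilobase of transcript scaled to the mapped fragments of the library, with 1 Cuffdiff value for the 2 mice of a group. There is therefore no SD, no test and no p-value for any gene in this comparison, and the spread between the mice cannot be seen. Depth per mouse is not held in the table of values. A gene was counted as changed, and is said to have risen or fallen, where its FPKM + 1 at 1 time was 1.5 or more times that at the other, provided that the larger of both values reached 1 FPKM. Of the 23235 genes listed, 10297 averaged 1 FPKM or more across the 4 cortex groups, and these were the genes tested. Differences are given as log2 of (FPKM + 1) at Zt+16 minus that at Zt+6, so that a negative value means a lower level in the dark.

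In mammals the daily clock runs on a feedback loop of transcription. CLOCK or NPAS2 pairs with ARNTL (BMAL1) on E-box elements and turns on the Period and Cryptochrome genes, whose proteins then repress that pair. The receptors NR1D1 and NR1D2 repress Arntl, ROR receptors activate it, and the bZIP factors DBP, TEF and HLF carry the rhythm to D-box genes. In the cortex, waking and sleep also move immediate early genes, which neurons transcribe within minutes of activity, and mice are mostly awake in the dark.

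From Zt+6 to Zt+16, 6593 genes (64.0% of those tested) changed in Snord116del cortex, 2571 of them rising (25.0%) and 4022 falling (39.1%). In WT cortex 1645 genes (16.0%) passed the same rule between these times, 588 rising (5.71%) and 1057 falling (10.3%). The interquartile range of the log2 differences was 1.62 in Snord116del and 0.55 in WT, and the median over all tested genes was -0.24 in Snord116del and -0.038 in WT. The sum of FPKM over all genes went from 160199 to 342188 in Snord116del and from 159300 to 216422 in WT, so the scale of the groups is itself uncertain. Scaling the groups to the same median of tested genes gave 3603 rises and 2733 falls in Snord116del, and scaling to the same total gave 856 rises and 6857 falls. For this reason the direction of a gene group has to be read against the median of all tested genes, which was -0.24 on the deposited scale. The group medians and the counts of rises and falls printed below are on the deposited scale, without that value subtracted, unless another scale is named.

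Both Zt+6 mice of this genotype were labelled with an earlier version of the expression table than either Zt+16 mouse, as was 1 of the 3 WT Zt+6 mice. What differed between the versions is not stated, and within Snord116del the time of day and the table version cannot be told apart.

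Clock genes were first examined at the start of the gene, since E-box, D-box, CRE and RORE elements in promoters are what the clock proteins and the factor CREB are known to bind. The 250 bases before the RefSeq start (build GRCm38.p6, 5′ to 3′ on the strand of the gene) are shown for the 6 tested clock genes in whose window such a motif was found, whether or not the gene was called, with the motif letters in capitals. The motifs searched on both strands were the E-box CACGTG, the D-box TTATGTAA or TTACGTAA, the CRE TGACGTCA and the RORE TAGGTCA.
Per1 (chr11:69098699-69098948, plus strand): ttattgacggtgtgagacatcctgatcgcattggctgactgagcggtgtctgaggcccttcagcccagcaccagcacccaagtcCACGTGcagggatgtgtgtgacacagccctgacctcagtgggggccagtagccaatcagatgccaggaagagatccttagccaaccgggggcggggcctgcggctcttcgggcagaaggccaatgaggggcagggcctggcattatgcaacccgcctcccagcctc
Per3 (chr4:151044666-151044915, minus strand): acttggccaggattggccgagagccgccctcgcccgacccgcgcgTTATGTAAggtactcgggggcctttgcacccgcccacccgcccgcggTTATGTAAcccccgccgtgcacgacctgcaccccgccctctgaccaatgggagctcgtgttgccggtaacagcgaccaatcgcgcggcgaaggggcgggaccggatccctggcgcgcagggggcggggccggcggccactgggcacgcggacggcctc
Cry1 (chr10:85185055-85185304, minus strand): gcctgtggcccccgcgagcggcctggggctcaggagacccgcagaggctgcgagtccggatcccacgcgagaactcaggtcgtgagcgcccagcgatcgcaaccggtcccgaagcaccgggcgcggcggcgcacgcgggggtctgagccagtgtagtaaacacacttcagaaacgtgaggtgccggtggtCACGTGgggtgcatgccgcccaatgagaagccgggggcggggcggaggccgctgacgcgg
Tef (chr15:81802423-81802672, plus strand): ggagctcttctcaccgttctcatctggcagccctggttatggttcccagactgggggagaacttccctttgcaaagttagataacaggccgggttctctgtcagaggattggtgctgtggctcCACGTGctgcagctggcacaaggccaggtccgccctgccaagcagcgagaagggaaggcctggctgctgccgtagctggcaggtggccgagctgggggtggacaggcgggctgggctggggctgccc
Hlf (chr11:90390918-90391167, minus strand): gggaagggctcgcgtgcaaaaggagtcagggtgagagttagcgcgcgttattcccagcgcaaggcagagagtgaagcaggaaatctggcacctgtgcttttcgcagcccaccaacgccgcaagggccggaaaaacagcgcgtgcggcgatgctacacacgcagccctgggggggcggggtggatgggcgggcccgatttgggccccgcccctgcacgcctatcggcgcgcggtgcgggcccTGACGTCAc
Nfil3 (chr13:52981040-52981289, minus strand): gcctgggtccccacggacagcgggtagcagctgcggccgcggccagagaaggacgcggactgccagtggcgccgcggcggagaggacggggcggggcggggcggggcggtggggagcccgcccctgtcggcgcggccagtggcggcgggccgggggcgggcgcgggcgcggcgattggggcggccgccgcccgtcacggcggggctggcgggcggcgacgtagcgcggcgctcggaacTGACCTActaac
The E-box begins 166 bases before the start of Per1, 60 before that of Cry1 and 127 before that of Tef, the 2 D-boxes of Per3 begin 205 and 158 bases before its start, the CRE of Hlf begins 9 bases before its start, and the RORE of Nfil3, on the opposite strand, 12 bases before its start. Of 17 tested clock genes, 15 had a window in the table, and 3 of these held an E-box, 1 a D-box, 1 a CRE and 1 a RORE. Of the 7363 tested genes with a window, 10.6% held the E-box, 0.774% the D-box, 3.35% the CRE and 1.79% the RORE. Over all 32851 windows of the table the shares were 6.02% for the E-box, 0.931% for the D-box, 1.55% for the CRE and 2.23% for the RORE. A motif match is a description of the letters only. The E-box genes did not move together: Per1 fell, Tef rose and Cry1 was not called.

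Most of the tested clock genes were lower in Snord116del cortex in the dark. Of the 17, 13 fell, 1 rose and 3 were not called, against 39.1% falling and 25.0% rising over all tested genes. All 3 activators fell: Clock, a partner of ARNTL, from 9.77 FPKM at Zt+6 to 2.05 FPKM at Zt+16, Arntl itself from 3.57 to 0.761 FPKM, and Npas2, the other partner, from 10.2 to 4.66 FPKM. Their log2 differences were -1.82, -1.37 and -0.99. In WT cortex the same genes went from 2.64 to 1.62, from 1.44 to 0.701 and from 3.79 to 3.83 FPKM, and none passed the rule. For each activator the Snord116del level stood farther above WT in the light than in the dark.

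The 3 Period genes, whose proteins repress the activators, fell. Per1 went from 15.8 to 4.27 FPKM, Per2 from 8.85 to 3.25 FPKM and Per3 from 4.62 to 1.49 FPKM, with log2 differences of -1.67, -1.21 and -1.18. In WT, Per1 also fell, from 9.89 to 4.03 FPKM, while Per2 (3.34 and 3.25 FPKM) and Per3 (1.56 and 1.33 FPKM) did not pass the rule. The Cryptochromes, the partners of the Period proteins, stood at 3.14 and 4.03 FPKM (Cry1) and 10.9 and 12.9 FPKM (Cry2) in Snord116del and were not called.

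List medians were -1.94 for the NR1D and BHLHE repressors and -2.23 for the ROR receptors, against -1.37 for the activators. They rest on 3, 2 and 3 tested genes, and Nr1d2 (-1.05) fell less than Clock (-1.82). With the median of genes of similar length subtracted, the list medians were -1.90, -0.57 and -0.26. Nr1d1 (REV-ERB alpha) went from 30.8 to 7.26 FPKM, Nr1d2 from 7.65 to 3.18 FPKM, and Bhlhe40, an E-box repressor that also responds to activity, from 23.5 to 4.33 FPKM. The ROR receptors, which act on the same elements as NR1D1, fell too, Rora from 8.31 to 1.38 FPKM and Rorb from 9.50 to 0.876 FPKM. In WT, Nr1d1 (9.79 to 5.18 FPKM), Bhlhe40 (8.45 to 4.53 FPKM) and both ROR genes fell by the same rule with smaller log2 differences, between -0.81 and -0.73. The ROR median lay below that of all genes under each alternative that kept the list, and neither gene was left where a mean of at least 5 FPKM was asked for.

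The output factors split. Dbp fell from 6.00 to 0.900 FPKM and Hlf from 13.0 to 4.48 FPKM, whereas Tef rose from 24.0 to 43.5 FPKM. Tef stood at 20.5 and 26.0 FPKM in WT, and its rise turned to a log2 difference of -0.23 when groups were scaled to the same total. Nfil3, a repressor at the D-box, stood at 1.79 and 2.54 FPKM and was not called. Of the 6 tested kinases and F-box proteins that modify clock proteins, 3 fell (50%) and 1 rose (16.7%), beside 39.1% and 25.0% of all tested genes. Csnk1a1, a casein kinase 1 isoform, went from 39.6 to 25.9 FPKM and Gsk3b from 9.05 to 2.52 FPKM. Btrc, the F-box protein that marks Period proteins for degradation, went from 8.47 to 14.3 FPKM. The direction of this list against the all-gene median reversed when the dependence on transcript length was removed.

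**Figure D1:**
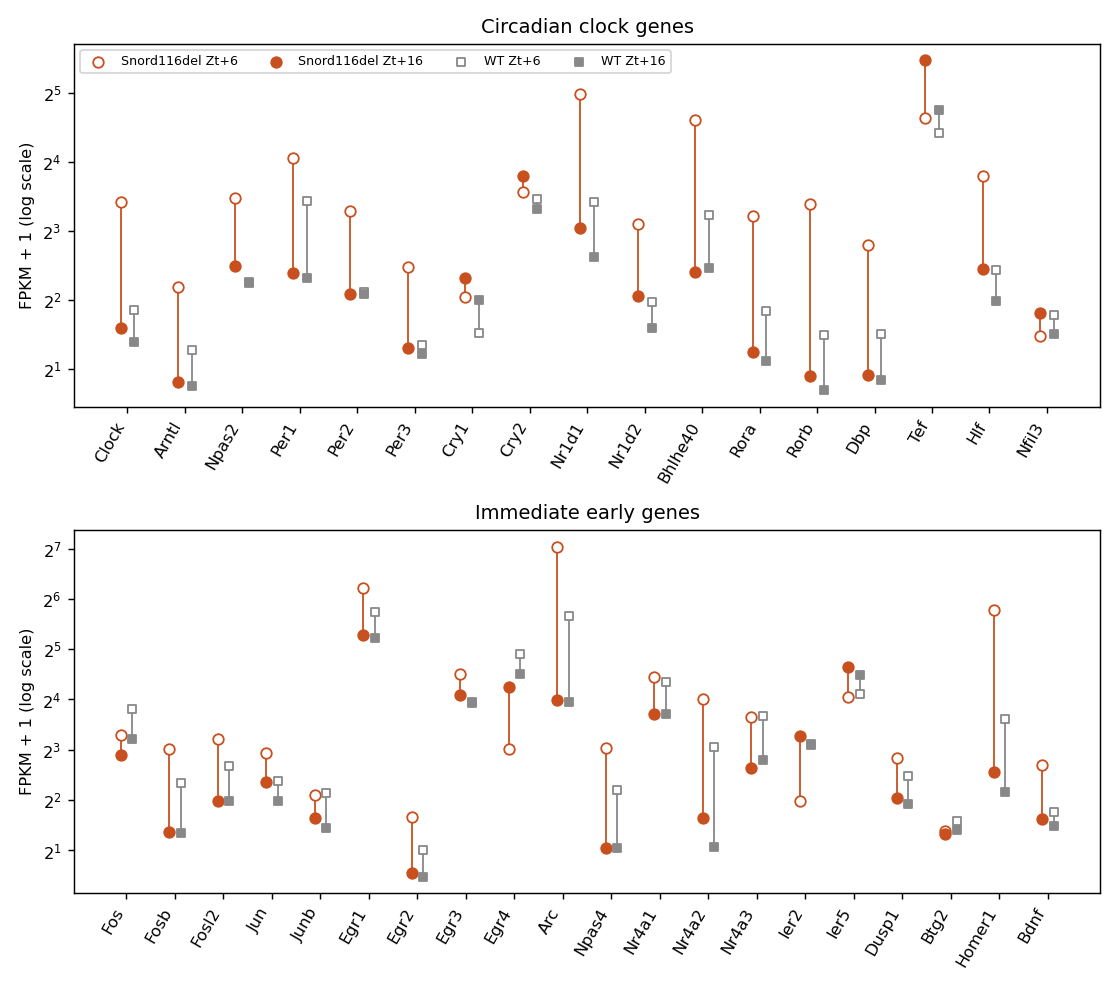
FPKM + 1 on a log scale for the 17 tested clock genes (top) and the 20 tested immediate early genes (bottom), with open symbols for Zt+6 and filled symbols for Zt+16; circles are Snord116del and squares WT, 1 value per group with no error bar. The 2 times lie farther apart in Snord116del than in WT for Clock, Rorb, Arc and Homer1, and the filled circles of these genes lie near the filled squares.

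Transcript length, which tracked the change over all genes, also moved with part of the clock pattern. With the median of genes of similar length subtracted, the log2 difference was -1.90 for Nr1d1, -1.94 for Bhlhe40, -2.24 for Dbp, -1.28 for Arntl and -0.94 for Per1, each still past 1.5-fold. It was -0.17 for Clock, -0.26 for Npas2, -0.068 for Per2, -0.029 for Per3, -0.31 for Nr1d2, -0.31 for Rora and -0.21 for Hlf, none of which passed. Rorb still passed at -0.83, Tef stood at 1.57 and Cry2, not called on the deposited scale, passed as a rise at 0.82. In all, 6 of the 17 clock genes were then lower and 2 higher, against 24.8% and 25.0% of all genes on this scale. Btrc stood at 1.84.

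Immediate early genes were mostly lower in the dark: of 20 tested, 12 fell (60%), 3 rose (15%) and 5 were not called, against 39.1% and 25.0% of all tested genes, with a median log2 difference of -0.86 (WT -0.58). Their median lay below that of all genes under each alternative tried. Arc, a synaptic plasticity protein, went from 130.4 to 14.8 FPKM, Homer1, a postsynaptic scaffold with an activity-induced isoform, from 53.5 to 4.86 FPKM, and the nuclear receptor Nr4a2 from 15.2 to 2.14 FPKM. Npas4, a factor induced by calcium entry, fell from 7.23 to 1.07 FPKM and Egr1 from 72.8 to 38.1 FPKM. The same 5 genes in WT went from 49.5 to 14.4 FPKM for Arc, 11.3 to 3.49 for Homer1, 7.31 to 1.10 for Nr4a2, 3.62 to 1.07 for Npas4 and 52.6 to 36.3 for Egr1, with Egr1 not called.

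Not every gene of this class took part. Fos stood at 8.80 and 6.47 FPKM in Snord116del and was not called, while in WT it went from 13.1 to 8.25 FPKM and fell. Egr4 rose from 7.05 to 17.9 FPKM and Ier2 from 2.98 to 8.68 FPKM, where WT held 29.0 and 21.8 FPKM of Egr4 and 7.65 and 7.59 FPKM of Ier2. In both of these genes the Zt+6 value of Snord116del lay below both WT values. Ier5 rose from 15.5 to 23.9 FPKM, a log2 difference of 0.59 that became -0.45 with equal totals.

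The largest rise among genes with at least 1 FPKM at both times was in Oxt, which encodes the oxytocin precursor (mm9 chr2:130401909-130402790 in the GENCODE annotation of NCBIM37), from 1.18 to 107 FPKM, and the next was in Avp, the vasopressin precursor (mm9 chr2:130406356-130408290), from 1.56 to 76.6 FPKM. In WT cortex Oxt stood at 1.72 and 1.91 FPKM and Avp at 4.90 and 2.60 FPKM, so the Snord116del Zt+16 group stood apart from the other 3 groups for both peptides. The 2 genes are neighbours on opposite strands of chromosome 2, and the 250 bases before each start are shown because they moved together, with windows 6.42 kb apart in GRCm38.p6 and an E-box in that of Avp only.
Oxt (chr2:130575919-130576168, plus strand): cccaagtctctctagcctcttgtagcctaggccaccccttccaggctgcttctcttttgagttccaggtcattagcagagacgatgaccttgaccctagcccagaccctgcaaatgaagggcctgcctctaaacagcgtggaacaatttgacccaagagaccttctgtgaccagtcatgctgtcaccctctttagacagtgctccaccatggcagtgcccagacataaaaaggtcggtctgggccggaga
Avp (chr2:130582589-130582838, minus strand): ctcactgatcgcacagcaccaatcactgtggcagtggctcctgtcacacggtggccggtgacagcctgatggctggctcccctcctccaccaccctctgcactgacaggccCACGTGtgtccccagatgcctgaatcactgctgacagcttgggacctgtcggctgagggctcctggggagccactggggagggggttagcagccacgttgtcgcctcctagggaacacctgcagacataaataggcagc
The 2 peptides are made by neurons of the hypothalamus, and neither is a defining transcript of cortex. Of the 6 markers listed for hypothalamus and thalamus, Oxt and Avp rose and Prkcd fell, from 2.22 to 0.575 FPKM. The 3 that were not tested were low at both times, Hcrt at 1.03 and 0.980 FPKM, Pmch at 0.0238 and 0.0703 FPKM and Tcf7l2 at 1.71 and 0.913 FPKM. The summed level of the 6 went from 7.71 to 186 FPKM in Snord116del and from 8.42 to 6.64 FPKM in WT. With 1 value per group it cannot be seen whether 1 mouse or both carried the rise.

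Other large rises were in genes of general cell function. Ndufb2, a subunit of respiratory complex I (mm9 chr6:39542573-39553381), rose from 52.2 to 961 FPKM, Mif, a cytokine with tautomerase activity, from 97.3 to 1524 FPKM, and Rnaseh2c, a subunit of ribonuclease H2, from 9.35 to 204 FPKM. Gp1bb, a platelet glycoprotein subunit whose reads can include those of a neighbouring septin gene, rose from 28.0 to 619.9 FPKM, and Siva1, an apoptosis regulator, from 7.51 to 127 FPKM. The WT log2 differences of these 5 ran from 0.43 (Gp1bb) to 1.03 (Mif), against 3.91 (Siva1) to 4.42 (Gp1bb) in Snord116del.

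Where the Snord116del groups averaged 20 FPKM or more, further rises were in Ndufc1, another complex I subunit (119 to 1693 FPKM), Cort, the cortistatin neuropeptide of interneurons (7.35 to 116 FPKM), and Gstp2, a glutathione transferase (19.7 to 302 FPKM). Gm1673 went from 77.0 to 1139 FPKM. Rn45s, the precursor of ribosomal RNA, was listed at 0 at Zt+6 in both genotypes and at 305 FPKM in Snord116del and 248 FPKM in WT at Zt+16. Such a 0 can be a failed estimate, so the rise of Rn45s is uncertain. Values of Gm2506 (1.74 and 67.7 FPKM), Gm1821 (50.1 and 848 FPKM), Gstp2 and the beta globin Hbb-b2 (18.0 and 401 FPKM) are uncertain, since near-identical copies can share their reads: the paired globin gene Hbb-b1 went the other way, from 89.4 to 26.0 FPKM.

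The largest fall among genes with at least 1 FPKM at both times was in Cdr1 (mm9 chrX:58436421-58438733), whose locus on the X chromosome gives rise to a circular RNA from the opposite strand in neurons. It went from 301 to 3.13 FPKM in Snord116del and from 25.3 to 1.46 FPKM in WT, and the table does not separate the strands. The noncoding RNAs Snhg11 (139 to 2.87 FPKM) and Malat1 (433 to 21.2 FPKM), a nuclear RNA of splicing speckles, and the noncoding 1700020I14Rik (50.5 to 3.63 FPKM) fell with it. Among coding genes, Sv2a, a synaptic vesicle glycoprotein, went from 51.0 to 2.01 FPKM, Nckap1, a subunit of the WAVE actin complex, from 51.0 to 2.07 FPKM, and Grin2a, an NMDA receptor subunit, from 23.4 to 1.21 FPKM. Peg3, an imprinted zinc finger gene, fell from 30.5 to 1.29 FPKM, Tmem30a, a flippase subunit, from 43.0 to 2.62 FPKM, and Bmpr2, a BMP receptor, from 21.7 to 1.00 FPKM.

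These falls ran in the same direction in WT. The 10 genes had WT log2 differences from -3.42 (Cdr1) to -1.49 (Grin2a), all past the rule. Atp6v0c, the proteolipid of the vacuolar proton pump, went from 315 to 0.486 FPKM in Snord116del and from 60.5 to 0 FPKM in WT, and a listed 0 can be a failed estimate. Cdr1, at a similar Snord116del level at Zt+6 (301 FPKM), was still at 3.13 FPKM at Zt+16. Napb, which recycles SNARE complexes (38.0 to 2.82 FPKM), Ank2, an ankyrin of axons (55.8 to 5.23 FPKM), and Lars2, the mitochondrial leucyl-tRNA synthetase (45.4 to 4.27 FPKM), complete the abundant genes with the largest falls, beside Homer1.

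**Figure D2:**
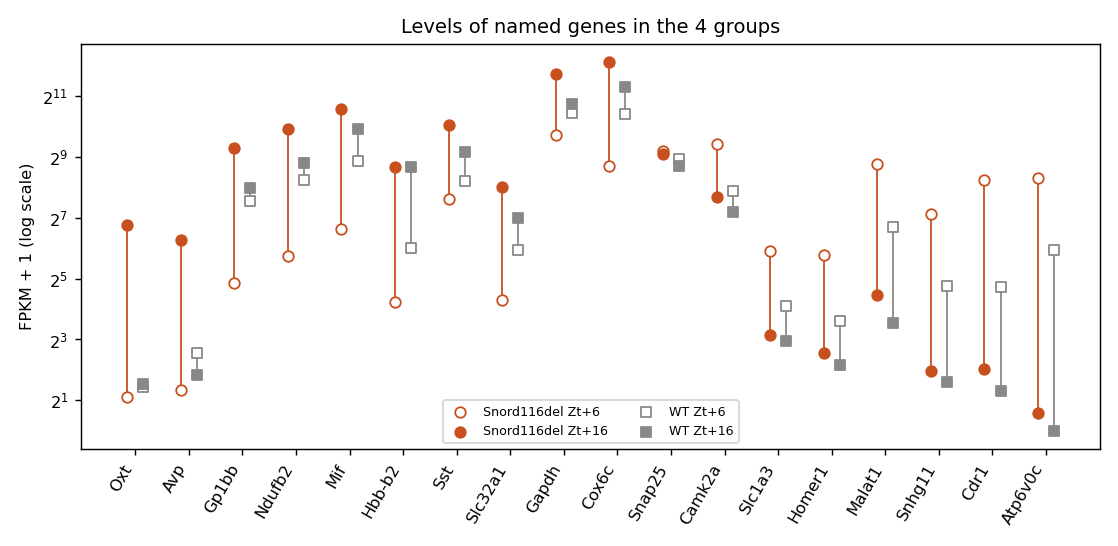
FPKM + 1 on a log scale for 18 named genes in the 4 groups, open symbols for Zt+6 and filled for Zt+16, circles for Snord116del and squares for WT, 1 value per group with no error bar. Oxt and Avp are high only in the filled circle (107 and 76.6 FPKM), Snap25 is at a similar level in all 4 groups, and Cdr1, Snhg11 and Malat1 are lower at Zt+16 in both genotypes.

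Most tested subunits of the respiratory chain, the ribosomes and the proteasome, and most glycolysis genes, rose in the dark in Snord116del cortex. Over all tested genes 25.0% rose and 39.1% fell. Of 78 tested subunits of the respiratory chain and ATP synthase, 68 rose and 1 fell, with a median log2 difference of 1.87 (WT 0.52). Their share of all FPKM went from 4.32% to 12.3% in Snord116del and from 9.32% to 11.0% in WT. Both WT shares lay between the Snord116del shares, and the Zt+6 share of Snord116del was the lowest of the 4 groups. Cox6c, a subunit of cytochrome oxidase, rose from 417 to 4389 FPKM, and the 1 that fell was Ndufa10, from 18.0 to 7.44 FPKM. Of 16 glycolysis genes 11 rose and 1 fell, with Gapdh going from 843 to 3368 FPKM, Aldoa from 338 to 1349 FPKM and Pkm2 from 169 to 846 FPKM. Eno1, which has near-identical copies, fell from 174 to 20.4 FPKM. The glycolysis median lay above that of all genes except after quantile normalization, under which the log2 differences of Gapdh and Aldoa were -0.34 and -0.22.

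Of 80 cytosolic ribosomal protein genes 64 rose and 3 fell, with a median of 1.56 (WT 0.47). Their share of all FPKM went from 7.80% to 16.7% in Snord116del and from 12.6% to 14.7% in WT, so both WT shares again lay between. Rpl41 rose from 635 to 5315 FPKM and Rps21 from 515 to 4669.7 FPKM, while Rps14 fell from 74.5 to 37.7 FPKM. Many of these genes have processed copies that can share reads. Of 71 mitochondrial ribosomal protein genes 55 rose and none fell, led by Mrpl52 (30.8 to 394 FPKM), with Mrps25 at 6.07 and 4.91 FPKM, not called, at the other end. Of 39 proteasome subunits 25 rose and 6 fell. Psmb5, a catalytic subunit, went from 30.2 to 199 FPKM and Psmd3, of the regulatory cap, from 23.7 to 3.25 FPKM. The 3 lists lay above the all-gene median under each alternative, with medians after removal of the length trend of 0.49, 0.75 and 0.24, and the respiratory chain at 0.89. Translation initiation factors showed no common direction. Of 51, 13 rose (25.5%) and 22 fell (43.1%), near the 25.0% and 39.1% of all tested genes. Among those that fell was the scaffold Eif4g1 (12.3 to 1.11 FPKM).

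Genes of the neuronal membrane and synapse were mostly lower in the dark. Of 33 tested glutamate and GABA receptor genes 29 fell and none rose, against 39.1% and 25.0% of all tested genes, with a median of -1.57 (WT -0.57). The GABA-B subunit Gabbr2 went from 100.4 to 19.9 FPKM, and the extrasynaptic GABA-A subunit Gabrd stood at 19.3 and 23.8 FPKM, not called. Of 14 neurexin, neuroligin and postsynaptic scaffold genes 12 fell and none rose, with Shank1 going from 65.6 to 6.85 FPKM and Nrxn2 standing at 36.4 and 47.1 FPKM, not called. Of 42 cadherins and protocadherins 36 fell and none rose. Pcdh7 went from 18.7 to 1.32 FPKM and Pcdh10 from 28.0 to 9.04 FPKM, and clustered protocadherins share exons, so that their single values are uncertain. These 3 lists lay below the all-gene median under each alternative, with medians of -0.80, -0.85 and -0.47 after removal of the length trend, for which 26 of the 42 cadherins had a length.

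Ion channels followed with exceptions. Of 54 tested potassium channel genes 29 fell (53.7%) and 10 rose (18.5%), beside 39.1% and 25.0% of all tested genes. The accessory subunit Kcnmb4 rose from 21.3 to 74.8 FPKM. Of 22 sodium and calcium channel genes 17 fell, such as the R-type subunit Cacna1e (25.3 to 2.21 FPKM), and 2 rose. The sodium and calcium channel median went from -1.26 to 0.055 when the length trend was removed, so its direction did not hold. Synaptic vesicle genes were mixed, with 5 of 18 rising (27.8%) and 8 falling (44.4%), near the shares of all tested genes. Rab3a rose from 100.5 to 309 FPKM, Sv2a fell, and Snap25 stood at 589.7 and 545 FPKM. Kinesins and dyneins were mixed too, 6 of 27 rising, such as the light chain Dynll2 (99.6 to 474 FPKM), and 14 falling, such as the motor Kif5b (22.8 to 3.23 FPKM), and their direction reversed without the length trend. Of 12 long noncoding and snoRNA host genes 8 fell, Meg3 going from 228 to 44.1 FPKM, and 2 rose.

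**Figure D3:**
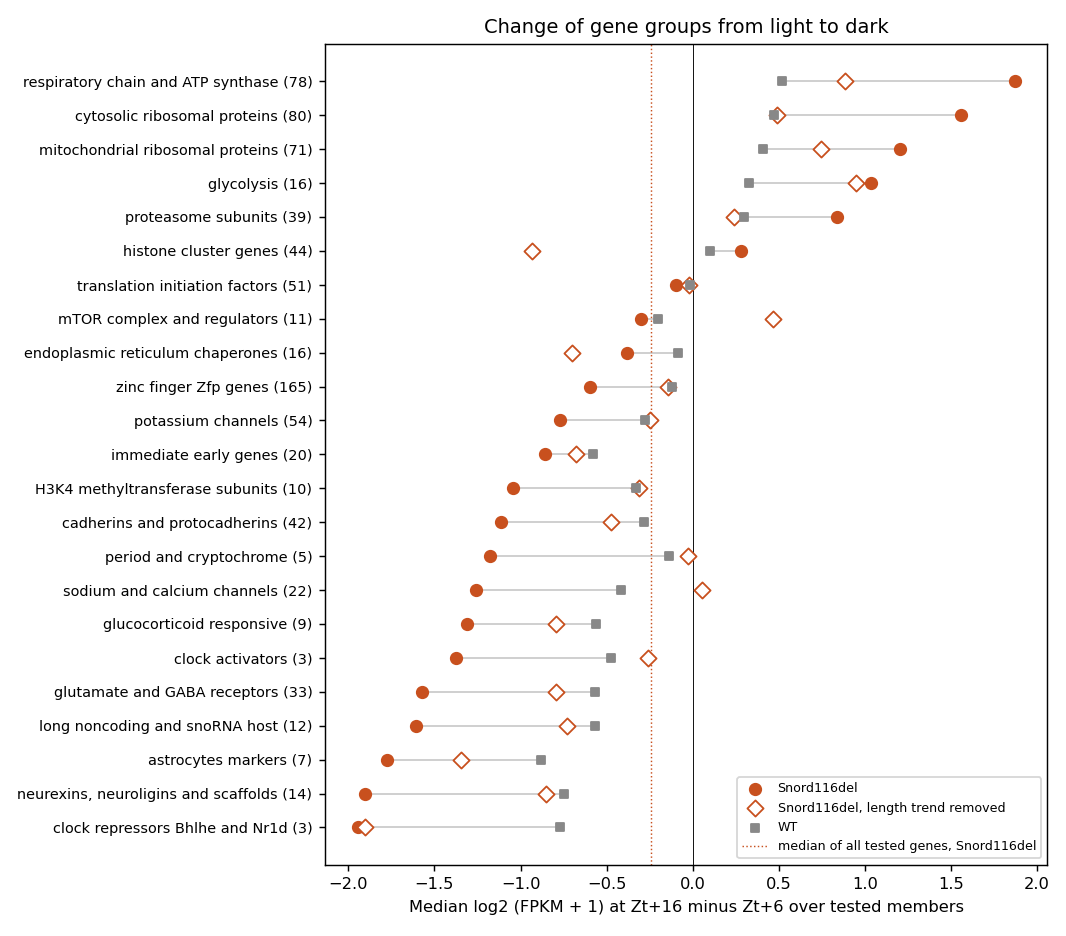
Median log2 difference in FPKM + 1 from Zt+6 to Zt+16 over the tested members of 23 gene lists (number tested in parentheses), for Snord116del (circles), Snord116del with the trend on transcript length removed (diamonds) and WT (squares); the dotted line is the median of all tested genes in Snord116del. The respiratory chain (1.87) and ribosomal proteins (1.56) lie at the top and the NR1D and BHLHE repressors (-1.94) at the bottom, and the diamonds of sodium and calcium channels, the mTOR list and histone genes lie on the other side of 0 from their circles.

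Chaperones and hormone-responsive genes were less uniform. Of 16 endoplasmic reticulum chaperones and stress factors 7 fell (43.8%) and 1 rose (6.25%), beside 39.1% and 25.0% of all tested genes. Hsp90b1 went from 76.1 to 22.1 FPKM and the disulfide isomerase Pdia3 from 22.5 to 2.39 FPKM, Atf4, a stress transcription factor, rose from 19.1 to 79.0 FPKM, and the most abundant, Calr, stood at 105 and 83.6 FPKM. Of 13 heat shock chaperones 3 rose (23.1%) and 6 fell (46.2%), near the shares of all tested genes. Hspe1 went from 34.3 to 201 FPKM and Hspa4l from 16.2 to 2.04 FPKM, and Hspa8 stood at 572 and 692 FPKM. The list had no direction that held across alternatives. The cold-inducible RNA-binding gene Cirbp rose from 5.62 to 16.7 FPKM and Rbm3 stood at 12.4 and 10.4 FPKM. Of 9 glucocorticoid-responsive genes 6 fell, such as Klf9 (12.7 to 0.914 FPKM), and 1 rose, Ddit4, an inhibitor of mTOR (4.74 to 19.8 FPKM), while Sgk1 stood at 11.6 and 12.8 FPKM. That list lay below all genes except where only genes of at least 5 FPKM were used.

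The kinase Mtor stood at 8.95 and 8.65 FPKM and its inhibitor Tsc2 at 12.6 and 13.8 FPKM, neither called. Without the length trend Mtor had a log2 difference of 1.61 and passed the rule. Of the 11 tested mTOR complex members and regulators 4 fell (36.4%) and none rose, beside 39.1% and 25.0% of all tested genes. The list's median of -0.30 differed from that of all genes by only -0.060, and it was 0.47 after removal of the length trend. Of the genes named in the study for 116HG binding or for PCR and tested here, the acetyltransferase Crebbp fell from 17.5 to 2.60 FPKM, the receptor Igf2r from 3.10 to 0.390 FPKM and the receptor kinase Mertk from 10.5 to 0.457 FPKM, and Ccdc12 rose from 5.95 to 40.1 FPKM. Igf2r stood at 0.10 after removal of the length trend. These genes were chosen by the study on its own data, so their count is not independent evidence of a direction. Of 10 subunits of H3K4 methyltransferase complexes 6 fell, such as Mll1 (15.6 to 1.68 FPKM), and 1 rose, Dpy30 (6.83 to 16.4 FPKM), which stood at -0.30 without the length trend. Of 20 cholesterol synthesis genes 10 fell (50%), among them the regulator Srebf2 with a log2 difference of -2.09, and 4 rose (20%), among them the kinase Pmvk (11.4 to 78.4 FPKM). These shares were near the 39.1% and 25.0% of all tested genes, and the list's median lay above that of all genes in 2 alternatives, a mean of at least 5 FPKM and removal of length and GC content.

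The deleted snoRNA entry, Snord116, was listed at 0 in all 4 groups and so gives no check of the deletion. Its neighbour Ipw, a noncoding exon set of the same long transcript, stood at 3.40 FPKM at Zt+6 and 1.82 FPKM at Zt+16 in Snord116del, against 21.6 and 3.17 FPKM in WT, and fell in both genotypes. Snrpn, an imprinted splicing protein gene upstream, stood at 105 and 149 FPKM in Snord116del and was not called. Snurf, which shares its transcript with Snrpn, was listed at 29.1 and 0.255 FPKM, and how reads were split between the overlapping genes makes that value uncertain. Ndn rose from 24.9 to 48.6 FPKM, but stood at -0.12 with equal totals. Ube3a, expressed from the maternal chromosome in neurons, fell from 5.41 to 0.761 FPKM, with 1.55 and 0.582 FPKM in WT.

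The tissue label was checked against cell markers. The excitatory cortical markers Camk2a (688 and 202 FPKM) and Slc17a7 (127 and 120.3 FPKM) were present at both times in Snord116del. In bulk tissue, fewer cells of a type and less RNA per cell cannot be told apart. Of 7 astrocyte markers 5 fell and none rose, against 39.1% and 25.0% of all tested genes. The glutamate transporters Slc1a3 (58.7 to 7.85 FPKM) and Slc1a2 (189 to 47.8 FPKM) were among those that fell. The summed level of the 7 markers went from 315 to 99.9 FPKM (WT 111 to 65.9 FPKM). Of 6 tested endothelial markers 6 fell, such as Flt1 (4.17 to 0.235 FPKM) and Cldn5 (4.99 to 0.817 FPKM). Inhibitory neuron markers went both ways: Sst, somatostatin, rose from 193 to 1055 FPKM and the vesicular GABA transporter Slc32a1 from 18.8 to 258 FPKM, while the GABA-synthesizing enzyme Gad1 fell from 27.5 to 10.4 FPKM.

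Glial and regional markers were split in the same manner. The oligodendrocyte gene Mbp, a part of myelin, rose from 425 to 854 FPKM, and its difference turned to -0.088 with equal totals and to -1.19 after quantile normalization. The microglial C1qb rose from 43.0 to 98.3 FPKM and P2ry12 fell from 11.9 to 2.40 FPKM. Of 7 striatal markers 3 rose (42.9%), such as Penk (98.0 to 429 FPKM), and 3 fell (42.9%), beside 25.0% and 39.1% of all tested genes. Ttr, the abundant product of choroid plexus, fell from 182 to 29.6 FPKM in Snord116del and from 199.8 to 24.9 FPKM in WT, and the 6 choroid plexus markers together went from 186 to 31.3 FPKM and from 204 to 26.3 FPKM. The part of cell makeup in the changes of other genes was not tested.

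The changes of Snord116del cortex ran with those of WT in direction and beyond them in size. Of the genes changed in WT, 1570 changed the same way in Snord116del, 565 rising and 1005 falling. These are 95.4% of the WT genes and 23.8% of the Snord116del genes. Among all tested genes, 64.0% changed in Snord116del, 25.0% rising and 39.1% falling. Spearman's rho between the differences of the 2 genotypes was 0.870 across 10297 genes, which share libraries and a dependence on length and are not independent. Genes that rose in Snord116del had a median log2 difference of 1.23 there and 0.39 in WT, and genes that fell -1.25 and -0.38. Such genes were chosen for their change in Snord116del, which favours the larger value there. Across all tested genes, without that choice, the interquartile range was 1.62 in Snord116del and 0.55 in WT. The difference between the genotypes was not tested, since a group has 1 value.

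The light and dark levels differed in how they stood to WT. For the genes that fell, Snord116del stood above WT by a median of 1.14 on the log2 scale at Zt+6 and by 0.23 at Zt+16. For the genes that rose, it stood at -0.33 at Zt+6 and 0.59 at Zt+16, and both WT values lay between both Snord116del values in 2007 of the 2571 rising genes. The same held for 159 of the 4022 falling genes. These medians describe genes chosen for their change in Snord116del and use the same values.

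The genes whose change in Snord116del lay farthest above that in WT, with at least 1 FPKM in all groups, were Avp, Oxt, Gp1bb, Ndufb2 and Gm2506. Those farthest below were Cdr1, Snhg11, Peg3, Pcdh7 and Cap1, an actin-binding protein that went from 25.9 to 3.46 FPKM in Snord116del and from 8.32 to 5.03 FPKM in WT. Cap1 had a log2 difference of -2.59 in Snord116del and -0.63 in WT.

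**Figure D4:**
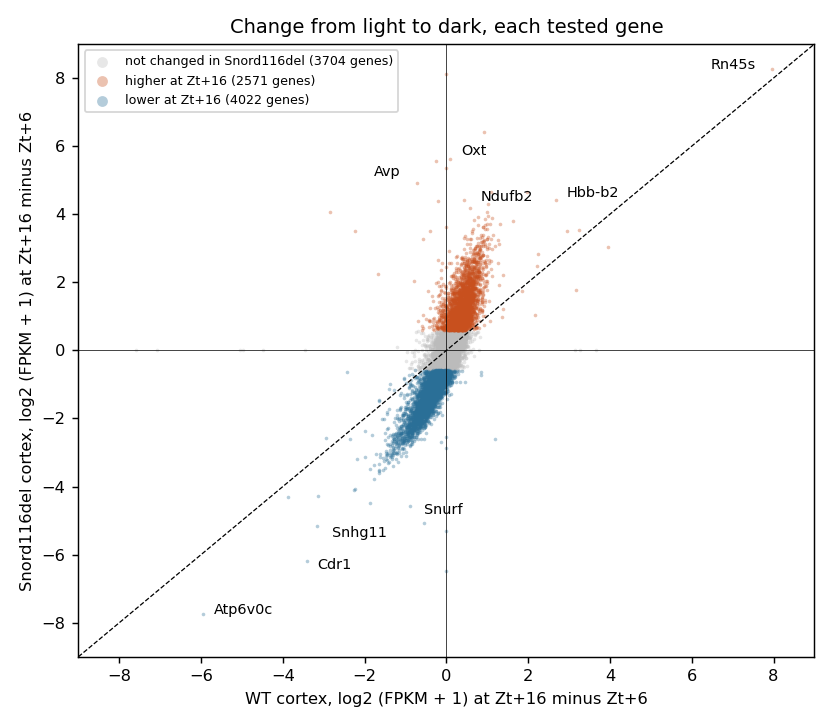
Log2 difference in FPKM + 1 from Zt+6 to Zt+16 for each of the 10297 tested genes, WT on the x axis and Snord116del on the y axis, coloured by the call in Snord116del; the dashed line marks equal change. The cloud is steeper than the dashed line, Oxt and Avp lie far above 0 in Snord116del only, and Cdr1, Snhg11 and Atp6v0c are low in both genotypes.

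Transcript length tracked the change in both genotypes. In Snord116del the median log2 difference went from 1.30 in the bin of genes with the shortest transcripts, of 10 bins of equal size (median 864 bases), of which 71.2% rose, to -1.49 in the bin with the longest (median 7922 bases), of which 86.5% fell. In WT the medians of the same bins were 0.33 and -0.43. Rising genes had a median longest transcript of 1661 bases and a gene span of 8.92 kb, and falling genes 4429 bases and 49.0 kb. Spearman's rho of the change with length was -0.618 in Snord116del and -0.486 in WT, and with GC content 0.363 and 0.203, as a description across genes. With the median of genes of similar length subtracted, 5065 of 10165 genes (49.8%) still passed 1.5-fold in Snord116del, 2542 higher (25.0%) and 2523 lower (24.8%), and 3711 of them were called in the same direction as before. RNA quality per library is not given in the sources used here beyond a minimum for all, and what the length trend reflects was not tested.

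**Figure D5:**
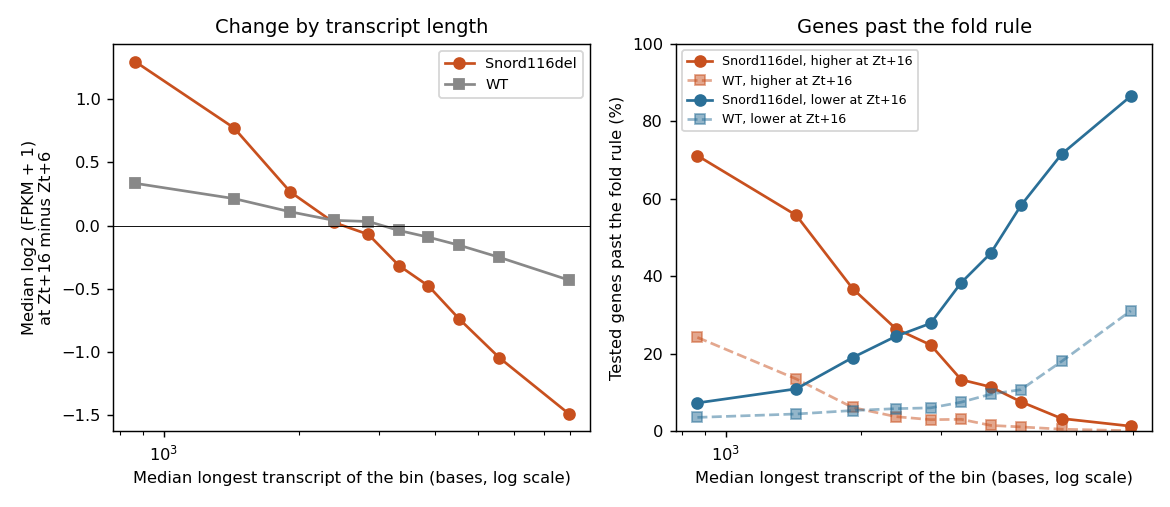
Left, median log2 difference in FPKM + 1 from Zt+6 to Zt+16 in 10 equal bins of the tested genes ordered by their longest annotated transcript, in Snord116del (circles) and WT (squares); right, the percentage of genes of each bin that rose or fell, with solid lines for Snord116del and dashed lines for WT. In Snord116del the median goes from 1.30 to -1.49 and in WT from 0.33 to -0.43 along the same axis.

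Chromatin bound by 116HG in WT brain had been mapped by chromatin isolation by RNA purification, in which oligos against the RNA pull down the DNA it touches. Of the tested genes, 1835 lay within 2 kb of a peak that the 2 WT replicates shared within 10 kb, and of these 18.9% rose and 49.2% fell in Snord116del, against 26.3% and 36.8% of the 8330 tested genes with a position and no such peak. The peak genes were longer, with a median transcript of 3630 bases against 2968 bases. With the tested genes split into 3 equal classes by transcript length, in the longest class 75.3% of peak genes and 68.3% of the others fell, in the middle class 39.0% and 32.6%, and in the shortest 14.3% and 13.3%. Genes at peaks of the control libraries fell in 58.0% of 257 (WT brain, non-specific oligos), 49.5% of 291 (Snord116del brain, 116HG oligos) and 41.2% of 1080 (Snord116del brain, non-specific oligos). In the same order, 81.6%, 73.2% and 65.5% fell in the longest class. The shares were 36.4%, 32.5% and 28.0% in the middle class, and 22.7%, 19.7% and 15.5% in the shortest. Genes were joined to peaks over their whole span, and the classes match transcript length but not gene span. Whether binding bears on the light to dark change was not tested.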

How the data were processed

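RNA was sequenced from cortex of 9 mice, 4 of them Snord116del. According to the study's methods and the submitters' processing notes, the authors aligned reads with TopHat2 2.0.5 to mm9 and combined the mice of each group in Cuffdiff 2.0.2, and the deposited table holds the resulting FPKM, with 1 value per gene and group. Its further columns, a log2 fold change, a q-value and a call for the authors' comparison of genotypes, were not used. A limma fit was planned for values per mouse. As the table has group values, the fold rule was used in its place, with a pseudocount of 1 FPKM and no p-value. FPKM removes length and depth but not the composition of a library, so a shift in a few abundant genes moves the rest.

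Groups were taken from the sample labels. The series' peak positions were called by the authors per library with MACS 1.4.2. A gene was joined to a peak within 2 kb of its span, and replicate peaks within 10 kb of each other were taken as shared. The longest annotated transcript and its GC content came from the GENCODE annotation of NCBIM37, matched by symbol for 98.7% and 96.6% of tested genes. The length trend was removed by subtracting the median change of 20 bins of transcript length. Promoter windows were RefSeq's for GRCm38.p6, matched by symbol. They covered 7363 of 10297 tested genes, fewer than 80%, so a comparison of motif shares between rising and falling genes would be void and none is given.

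Named genes were the 10 largest rises and falls with at least 1 FPKM at both times, the 5 largest of each among genes averaging 20 FPKM or more, the 5 farthest above and below the WT change, the clock, immediate early, cold-inducible, Prader-Willi domain and study-named lists, and of other lists the 2 most abundant and the most extreme members, short RNA genes apart. Some genes that this rule takes in are not reported here. Genes and lists were chosen with earlier results of these data known. Alternatives covered the pseudocount, the filter, the fold, 4 scalings, the length trend and short RNA genes. Removing length and GC content together was added after seeing the data. The code was tested on simulated data. The tools were numpy 2.4.6, scipy 1.17.1, pandas 2.3.3 and matplotlib 3.10.9 under Python 3.11.15.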

Additional observations from a re-analysis of the deposited data

How the results depend on the processing

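No paired analysis was possible because the table has 1 value per group and no values per mouse, so no mouse could be left out either. Depth per mouse was not used, and the precision of single values is unknown. Against 6593 changed genes in Snord116del (2571 higher, 4022 lower, median -0.24) and 1645 in WT, a pseudocount of 5 FPKM gave 4255 changed, 2386 lower, a median of -0.13 and 528 in WT, and a pseudocount of 0.1 gave 2694 in WT. With no filter the median was -0.049. A mean of at least 5 FPKM left 3088 changed, 1140 lower, a median of 0.34 and 1001 in WT, and at least 1 FPKM in both groups gave a median of -0.11. A fold of 2 gave 4368 changed, 1676 higher and 287 in WT. Equal medians gave a median of 0.13, with 3603 higher and 2733 lower. Equal totals gave 856 higher, 6857 lower, a median of -1.09 and 3036 in WT. Quantile normalization gave a median of 0.036, with 3122 higher and 2943 lower, and a trimmed mean 0.0056, with 3229 and 3124. Removing the length trend gave 2523 lower, a median of 0 by construction and 1033 in WT, and removing length and GC content 2378 lower, a median of 0 and 987 in WT. In each of these settings more genes changed in Snord116del than in WT.

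Of the named genes, those whose called direction reversed were, with equal totals, Tef (-0.23), Btrc (-0.31), Ier5 (-0.45), Ndn (-0.12) and Mbp (-0.088). After quantile normalization they were Gapdh (-0.34), Aldoa (-0.22) and Mbp (-1.19). Without the length trend they were Igf2r (0.096), Dpy30 (-0.30), Pcdh10 (0.12) and Gsk3b (0.14), and without length and GC content Nr1d2 (0.028), Csnk1a1 (0.34), Pcdh10 (0.032), C1qb (-0.30) and Gsk3b (0.053). The cause was not tested. No other called gene among the 132 named changed sign. Over 1663 pairs of a named gene and a setting, 72 lost the call, 30 gained it in the same direction and 15 gained it with the other sign, all 15 in genes not called on the deposited scale, such as Mtor (log2 difference of 1.61 without the length trend).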

Other observations

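Other gene groups of Snord116del cortex are given here as counts. Of 165 tested zinc finger genes of the Zfp series, predicted DNA-binding proteins, 16 rose (9.70%) and 84 fell (50.9%), beside 25.0% and 39.1% of all tested genes. Their median log2 difference was -0.60, and -0.15 after removal of the length trend. Of 44 histone cluster genes, which share near-identical sequence, 17 rose (38.6%) and 12 fell (27.3%), and their median of 0.28 became -0.94 without the length trend. Of 29 hnRNP and SR splicing factor genes 3 rose (10.3%) and 11 fell (37.9%), beside 25.0% and 39.1% of all tested genes, and their median lay on the other side of that of all genes without length and GC content. Of 35 tested short RNA genes, whose FPKM rests on very short transcripts, 11 rose (31.4%) and 11 fell (31.4%).

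Among the remaining marker lists, 2 of 6 neuronal markers, 2 of 2 oligodendrocyte precursor markers, 1 of 3 mural cell markers, 1 of 3 markers of meninges, 2 of 3 of hippocampus and 2 of 3 of blood fell, and 1 of the hippocampal and 1 of the blood markers rose. Of the other marker lists, 2 of 5 excitatory neuron markers fell, 3 of 6 inhibitory neuron markers rose and 2 fell, 3 of 8 microglial markers rose and 1 fell, and 4 of 9 oligodendrocyte markers rose and 3 fell. Over all tested genes 25.0% rose and 39.1% fell, and lists this short give no direction from such counts.

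Only 11 genes passed the rule in opposite directions in the 2 genotypes. Acot8, Avp, Basp1, Ccl21b, Rac3 and the short RNA genes Mir1187, Mir1983 and Rnu12 rose in Snord116del and fell in WT. Akr1b3, an aldose reductase, went from 5.12 to 0.000198 FPKM in Snord116del and from 0.536 to 2.52 FPKM in WT, S100a5, a calcium-binding protein, from 1.07 to 0.251 FPKM and from 4.42 to 8.77 FPKM, and the histone gene Hist1h3h from 2.52 to 1.26 FPKM and from 0.706 to 2.07 FPKM. These genes were named because of their values.

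Among the tested genes, 16 were listed at 0 at Zt+6 only in Snord116del, of which 10 were short RNA genes, and 8 at Zt+16 only, of which 6 were short RNA genes. The coding gene Celf2, an RNA-binding protein, was among the former, at 10.3 FPKM at Zt+16, with WT at 9.65 and 7.05 FPKM. A listed 0 can be a failed estimate, and Celf2 was chosen after its values were seen.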
